A study of Mus musculus with 18 samples.

Results

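The genes described here encode 8 peptide hormones of enteroendocrine cells, the scattered hormone-secreting cells of the gut epithelium: Cck, Gip, Gcg, Sct, Pyy, Nts, Sst and Ghrl. They were taken by symbol from the table of counts per gene, where they are 8 of 55335 genes, and all 8 passed the filter on low counts. RNA-Seq had been performed on small intestinal crypts, the epithelial pockets that hold stem and progenitor cells, from mice of 8 to 12 weeks whose Prmt1 alleles, which encode a protein arginine methyltransferase, were flanked by LoxP sites. The KO mice, Prmt1 fl/fl; Vil-CreERT2, also expressed a tamoxifen-activated Cre under the villin promoter, which acts in the gut epithelium, and the WT mice were Prmt1 fl/fl littermates without Cre. Tamoxifen was given to KO and WT mice alike at 2 mg a dose, and mice collected at day 2 had been injected 2 times while those of days 7 and 14 had been injected 5 times. There were 3 mice and 3 libraries in each of the 6 groups (WT and KO at days 2, 7 and 14), or 18 libraries, so the CreERT2 protein itself was present in the KO mice alone.

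Enteroendocrine cells arise from crypt progenitors under the transcription factor Neurog3 and then differentiate into subtypes that are named for their main hormones. I cells make cholecystokinin (Cck), K cells make gastric inhibitory polypeptide (Gip), L cells make proglucagon (Gcg) and peptide YY (Pyy), S cells make secretin (Sct), N cells make neurotensin (Nts), D cells make somatostatin (Sst) and X cells make ghrelin (Ghrl). The borders are not sharp, since a cell can make several of these hormones and change the mixture as it moves from crypt to villus. In these bulk libraries, more cells of a subtype and more RNA per cell cannot be told apart.

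Total counts per library ran from 12844642 to 31493484. Prmt1 was lower in all 3 KO libraries than in all 3 WT libraries on each day, at 54.1%, 66.4% and 60.9% of the WT mean at days 2, 7 and 14. The 5 epithelial markers Epcam, Vil1, Cdh1, Krt8 and Krt19 summed to between 4380 and 8494 CPM (each count relative to the total of its library, scaled by TMM factors) in every library. The crypt stem cell markers Lgr5, Olfm4, Ascl2, Smoc2 and Axin2 summed to between 298 and 1797 CPM. The libraries also carried markers of villus enterocytes, and the summed level of 8 of these markers ran from 5675 to 33208 CPM.

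The sequences just upstream of some of these genes are shown to set hormones that rose in KO crypts beside those that did not. They come from RefSeq (GRCm38.p6), which had an entry for all 8 genes, and cover the 250 bases before the transcription start nearest to the start in the counts table, written 5′ to 3′ on the gene's own strand. Capitals mark the E-box CAGNTG or its reverse complement CANCTG, the letters that basic helix-loop-helix factors such as Neurod1 can bind, and the cAMP response element TGACGTCA. Gcg and Cck are shown as hormones that rose in KO crypts, Pyy as the hormone with the largest fitted rise, Sst as a hormone with no call and Ghrl as the hormone that fell.
Gcg, chr2:62483654-62483903, minus strand: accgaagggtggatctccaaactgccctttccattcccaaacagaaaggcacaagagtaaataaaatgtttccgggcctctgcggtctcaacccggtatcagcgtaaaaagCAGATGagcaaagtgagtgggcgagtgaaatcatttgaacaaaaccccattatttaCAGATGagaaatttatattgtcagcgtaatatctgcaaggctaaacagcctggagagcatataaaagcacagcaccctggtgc
Cck, chr9:121495695-121495944, minus strand: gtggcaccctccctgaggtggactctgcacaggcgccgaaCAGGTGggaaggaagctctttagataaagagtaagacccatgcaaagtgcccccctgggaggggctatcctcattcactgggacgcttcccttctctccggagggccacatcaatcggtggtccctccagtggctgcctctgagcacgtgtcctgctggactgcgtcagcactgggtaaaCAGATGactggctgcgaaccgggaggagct
Pyy, chr11:102107833-102108082, minus strand: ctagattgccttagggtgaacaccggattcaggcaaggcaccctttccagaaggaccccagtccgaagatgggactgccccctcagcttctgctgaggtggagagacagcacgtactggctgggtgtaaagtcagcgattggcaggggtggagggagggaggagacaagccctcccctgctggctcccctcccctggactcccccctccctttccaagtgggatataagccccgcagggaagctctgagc
Sst, chr16:23890845-23891094, minus strand: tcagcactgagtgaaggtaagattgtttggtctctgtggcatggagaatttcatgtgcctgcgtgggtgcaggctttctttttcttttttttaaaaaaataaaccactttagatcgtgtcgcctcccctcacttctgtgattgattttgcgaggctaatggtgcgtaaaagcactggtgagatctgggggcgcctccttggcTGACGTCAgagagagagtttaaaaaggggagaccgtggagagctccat
Ghrl, chr6:113719912-113720161, minus strand: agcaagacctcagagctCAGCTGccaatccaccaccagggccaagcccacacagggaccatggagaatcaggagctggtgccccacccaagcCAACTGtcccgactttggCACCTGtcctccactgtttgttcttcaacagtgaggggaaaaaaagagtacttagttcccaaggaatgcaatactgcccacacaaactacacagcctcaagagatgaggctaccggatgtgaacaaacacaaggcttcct

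The E-box was found upstream of 6 of the 8 genes, against 44.8% of the 32851 promoters in the RefSeq table. The form CAGATG, which on the opposite strand reads CATCTG and was counted among the E-boxes too, was present at Gcg, where it occurred 2 times, at Cck and at Sct, and it was present in 14.4% of all promoters. The single E-box of Gip and that of Nts read CAGCTG. Ghrl held 3 E-boxes and none of the CAGATG form. Pyy and Sst held no E-box in this window, and Sst held a cAMP response element 48 bases before its start, as did 1.55% of all promoters somewhere in the window. The TATA box TATAAA (or TTTATA) was found at Gcg and Sct and in 12.4% of all promoters. These matches describe letters in the window and are not evidence of binding.

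At day 2 none of the hormones differed between KO and WT crypts. The 8 hormone genes had fitted log2 fold changes from -0.15 (Gip) to 0.47 (Pyy), KO and WT libraries overlapped for every gene, and 0 of 8 passed the quasi-likelihood test of edgeR at an adjusted p of 0.05 (Benjamini-Hochberg, over 21349 genes). None had an unadjusted p below 0.05, and the Wald test of DESeq2 called 0 as well. Of all genes tested, 0.0328% were called at day 2 and 8.16% showed no overlap. The widest interval was that of Pyy, whose 95% confidence interval on the log2 scale ran from -0.35 to 1.30, so a change of that size could not be seen at day 2. The plot of CPM by library shows these values for each gene.

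**Figure D1:**
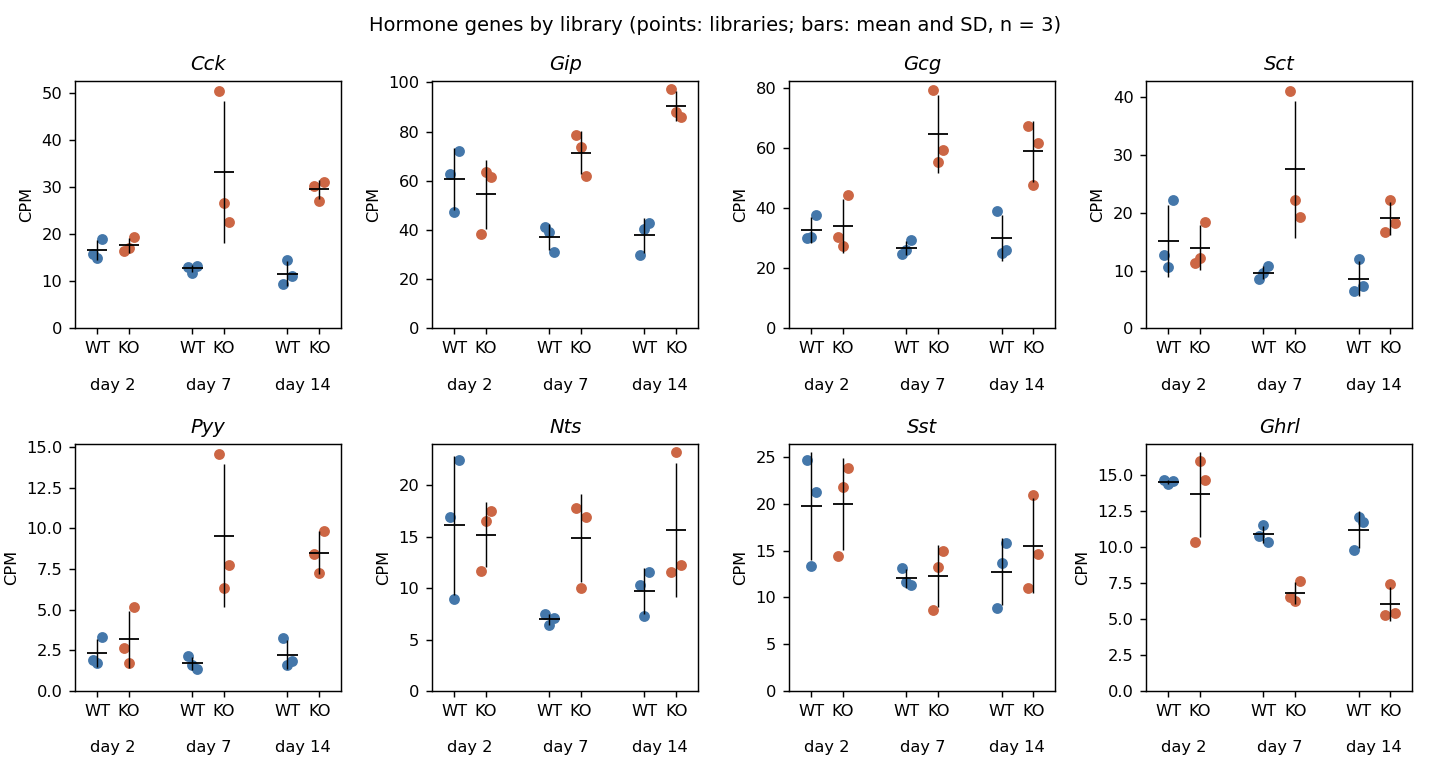
CPM of each hormone gene (vertical axes, linear, from 0) in the WT (blue) and KO (orange) libraries of days 2, 7 and 14, with 1 point per library and black bars for the mean and SD of 3 libraries. At days 7 and 14 the KO points lie above the WT points for Cck, Gip, Gcg, Sct, Pyy and Nts, overlap them for Sst and lie below them for Ghrl.

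At day 7, Cck, Gip, Gcg, Sct, Pyy and Nts rose in KO crypts, Ghrl fell and Sst was not called. The 7 calls compare with 17.3% of all genes tested, of which 7.11% were called higher and 10.2% lower. At day 14, Cck, Gip, Gcg, Sct and Pyy were called higher and Ghrl lower, 6 of the 8 genes, against 7.92% of all genes (3.23% higher and 4.69% lower). KO and WT libraries did not overlap for 7 of the 8 genes at day 7 and for the same genes at day 14, while 33.6% and 26.5% of all genes tested showed no overlap on these days. The median log2 fold change over the 8 hormones was 1.18 at day 7 and 1.05 at day 14, beside 0.016 and 0.002 over all genes.

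Pyy, the L cell hormone that slows gastric emptying and reduces appetite, had the largest fitted rise of the 8. Its 3 WT libraries at day 7 held 2.12, 1.597 and 1.36 CPM and its 3 KO libraries 14.5, 6.32 and 7.77 CPM. At day 14 the WT libraries held 3.25, 1.58 and 1.85 CPM and the KO libraries 8.43, 7.25 and 9.85 CPM. Every KO library thus stood above every WT library on both days, and KO replicate 1 was the highest at day 7. The fold was 5.56 at day 7 (log2 fold change 2.48 ± 0.40 SE, edgeR adjusted p = 0.000316) and 3.94 at day 14 (1.98 ± 0.40, edgeR adjusted p = 0.00383). Pyy was also the thinnest of the hormones in counts, with 25 to 327 fragments per library.

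Gcg, which encodes the precursor of the incretin GLP-1 and of GLP-2, is made with Pyy in L cells. Gcg was at 24.9, 26.01 and 29.6 CPM in the WT libraries of day 7 and at 79.6, 55.4 and 59.4 CPM in the KO libraries. At day 14 the WT libraries held 39.0, 24.95 and 26.2 CPM and the KO libraries 67.5, 47.8 and 61.8 CPM. The lowest KO library stood above the highest WT library on both days, with a narrower gap at day 14. The rise was 2.41-fold at day 7 (log2 fold change 1.27 ± 0.20 SE, edgeR adjusted p = 0.000246) and 1.97-fold at day 14 (0.98 ± 0.20, edgeR adjusted p = 0.00422).

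Gip, the other incretin and the product of K cells of the upper small intestine, had the highest mean CPM of the hormones in every group. Gcg exceeded it in KO replicate 1 of day 7 and WT replicate 1 of day 14. The WT libraries of day 7 held 41.1, 39.3 and 31.2 CPM of Gip and the KO libraries 78.8, 73.7 and 62.0 CPM. At day 14 Gip was at 29.8, 40.4 and 43.0 CPM in WT and at 97.2, 87.9 and 85.9 CPM in KO. The gap between the genotypes was wide on both days beside the spread within them. The fold was 1.92 at day 7 (log2 fold change 0.94 ± 0.19 SE, edgeR adjusted p = 0.00195) and 2.39 at day 14 (1.26 ± 0.19, edgeR adjusted p = 0.000367).

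Cck, which releases bile and pancreatic enzymes after a fatty meal, was at 12.95, 11.8 and 13.3 CPM in the WT libraries of day 7 and at 50.4, 26.5 and 22.5 CPM in the KO libraries. At day 14 it was at 9.29, 14.4 and 11.2 CPM in WT and at 30.3, 27.1 and 31.0 CPM in KO. KO replicate 1 of day 7 held close to double the level of the other KO libraries of that day, whereas the KO libraries of day 14 lay close together. The fold was 2.60 at day 7 (log2 fold change 1.38 ± 0.22 SE, edgeR adjusted p = 0.000320) and 2.52 at day 14 (1.33 ± 0.23, edgeR adjusted p = 0.000973).

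Sct, which stimulates bicarbonate secretion from the pancreas, showed the same KO library at the top. Its WT libraries of day 7 held 8.49, 9.65 and 10.7 CPM and its KO libraries 41.0, 22.3 and 19.3 CPM. On day 14 the WT libraries held 6.42, 12.04 and 7.32 CPM and the KO libraries 16.7, 22.1 and 18.2 CPM. No KO library fell within the WT range on either day. The fold was 2.86 at day 7 (log2 fold change 1.52 ± 0.32 SE, edgeR adjusted p = 0.00358) and 2.19 at day 14 (1.13 ± 0.32, edgeR adjusted p = 0.0405). The day 14 call was close to the threshold and was lost with a replicate block (edgeR adjusted p = 0.0561), without the filter on low counts (0.131) and when any library of that day but WT replicate 2 was left out (0.0607 to 0.125), while a replicate block within each day kept it (0.00431).

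Nts, which slows gut motility and aids fat absorption, rose less firmly. It was at 7.45, 6.39 and 7.14 CPM in the WT libraries of day 7 and at 17.8, 10.003 and 16.9 CPM in the KO libraries, a rise of 2.12-fold (log2 fold change 1.08 ± 0.33 SE, edgeR adjusted p = 0.0300). By day 14 WT libraries held 10.3, 7.27 and 11.6 CPM and the KO libraries 11.6, 23.2 and 12.3 CPM. The lowest KO library of day 14 was barely above the highest WT library, and KO replicate 2 stood well above the rest. The day 14 difference was not called (log2 fold change 0.70 ± 0.33, 95% confidence interval 0.01 to 1.38, edgeR adjusted p = 0.225). With a library left out it ran from 0.32 to 0.88. The day 7 call was lost with a replicate block within each day (edgeR adjusted p = 0.0544), without the filter on low counts (0.0888) and when any library of that day but KO replicate 2 was left out (0.0651 to 0.106).

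Sst, the D cell hormone that restrains the release of other gut hormones, showed no difference beyond the spread between libraries. Its WT libraries held 13.1, 11.6 and 11.3 CPM at day 7 and its KO libraries 8.63, 13.3 and 14.98 CPM. Day 14 WT libraries held 8.84, 13.7 and 15.8 CPM and the KO libraries 10.96, 20.9 and 14.6 CPM. The genotypes overlapped on both days, and KO replicate 1 was the lowest KO library each time. The log2 fold change was 0.03 at day 7 (95% confidence interval -0.56 to 0.62, edgeR adjusted p = 0.958) and 0.27 at day 14 (-0.32 to 0.86, edgeR adjusted p = 0.650), so a rise of the size seen for Pyy or Cck lay outside both intervals.

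Ghrl, whose acylated product stimulates appetite and which is made mostly in the stomach and upper small intestine, moved the other way. Its WT libraries held 10.7, 11.5 and 10.3 CPM at day 7 and its KO libraries 6.54, 6.21 and 7.64 CPM. At day 14 the WT libraries held 9.74, 12.1 and 11.7 CPM and the KO libraries 5.27, 7.38 and 5.40 CPM. Every KO library lay below every WT library on both days. The KO level was 0.627 of WT at day 7 (log2 fold change -0.67 ± 0.17 SE, edgeR adjusted p = 0.00876) and 0.536 of WT at day 14 (-0.90 ± 0.17, edgeR adjusted p = 0.00246).

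The Ghrl count shares fragments with a neighbour. The gene lies on chromosome 6 at 113716119 to 113719880 (mm10, minus strand), and 169 of its 1079 exon bases, or 15.7%, are also exon bases of the antisense gene Gm44033. Counting ignored strand and gave a fragment to every gene it overlapped, so fragments from the shared bases entered both counts. Gm44033 fell too, by 0.69 on the log2 scale at day 7 (edgeR adjusted p = 0.0220) and by 0.78 at day 14 (edgeR adjusted p = 0.0225), and which of them gave the shared fragments cannot be told apart. A further antisense gene, Gm26982, shares 3 bases with Ghrl and was not called. Mboat4, the enzyme that acylates ghrelin, was not called either, with log2 fold changes of -0.36 at day 7 and 0.12 at day 14.

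**Figure D2:**
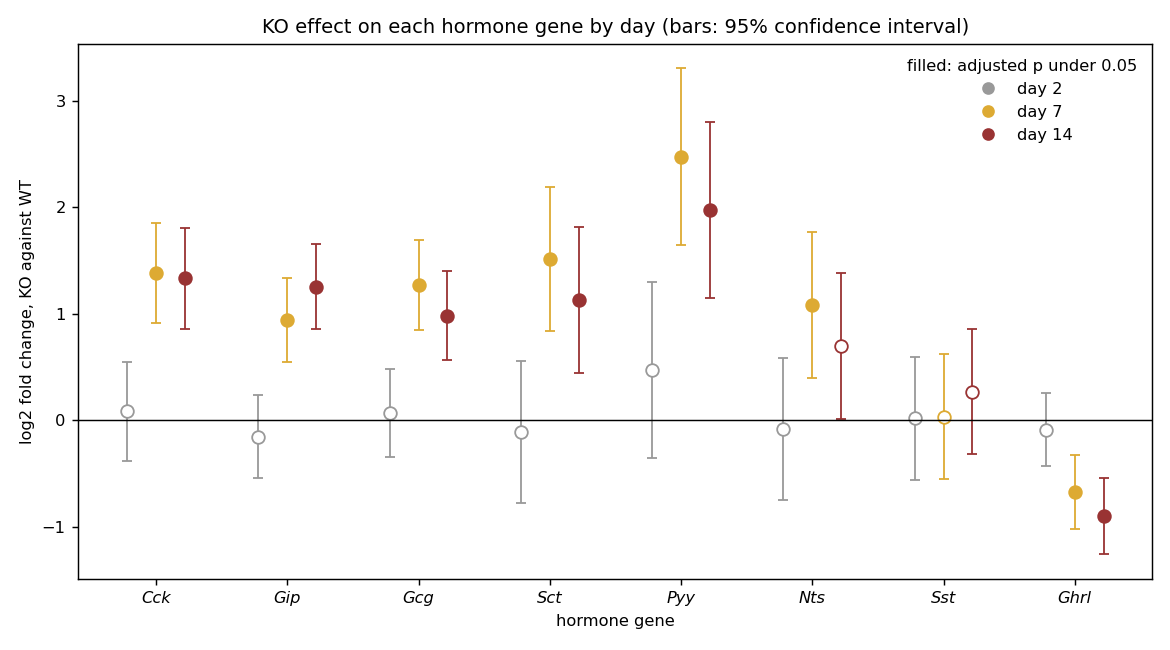
Fitted log2 fold change of KO against WT (vertical axis) for each hormone gene at day 2 (grey), day 7 (yellow) and day 14 (red), with 95% confidence intervals as bars and filled points for edgeR adjusted p under 0.05. Estimates sit near 0 at day 2, and at days 7 and 14 they range from -0.90 for Ghrl to 2.48 for Pyy.

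The change in the KO effect with time was then tested directly as an interaction. The day 7 effect exceeded the day 2 effect for Gcg (by 1.20 ± 0.28 SE on the log2 scale, edgeR adjusted p = 0.0194), Cck (1.30 ± 0.31, edgeR adjusted p = 0.0245), Gip (1.10 ± 0.27, edgeR adjusted p = 0.0245), Pyy (2.00 ± 0.55, edgeR adjusted p = 0.0470) and Sct (1.63 ± 0.45, edgeR adjusted p = 0.0490). These are 5 of the 8 hormones, and 4.37% of all genes were called in this comparison (1.33% higher). Between days 14 and 2 the effect on Gip differed (1.41 ± 0.27, edgeR adjusted p = 0.0107), 1 of the 8 hormones beside 1.04% of all genes. Between days 14 and 7 no hormone was called, nor was any other gene (0%, with 953 at an unadjusted p under 0.05) by edgeR, and none of the 8 stood below that unadjusted threshold. The Wald test of DESeq2 called 0 of the 8 and 2 of all genes in that comparison. The day 7 against day 2 calls rested on few libraries: leaving out each of the 12 libraries in turn gave between 0 and 6 called hormones, with 0 when KO replicate 1 of day 2 was left out. The Sct difference was also lost without the filter on low counts (edgeR adjusted p = 0.138), with a replicate block (0.0632) and with a model of only the groups compared (0.0529). The Pyy difference was lost with that last model too (edgeR adjusted p = 0.0613).

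The sum of hormone RNA in WT crypts was lower on the later days, and no single hormone passed the edgeR test. The WT sum of the 8 hormones was 178 ± 35.6 CPM (SD, n = 3) at day 2, 118 ± 2.96 CPM at day 7 and 124 ± 6.37 CPM at day 14. None of the 8 genes was called by edgeR between WT day 7 and WT day 2, where 4 had an unadjusted p under 0.05 and 0.553% of all genes were called. Between WT day 14 and WT day 2 edgeR called 0 with 6 under the unadjusted threshold, beside 1.61% of all genes, and between WT day 14 and WT day 7 it called 0 with none under it, beside 0.0796%. DESeq2's Wald test called 2, 1 and 0 of the hormones in these comparisons. Gip had the smallest edgeR adjusted p of the first 2 comparisons, 0.0651 (log2 fold change -0.71 ± 0.19 SE) and 0.0611 (-0.68 ± 0.19). The WT mice of day 2 had received 2 injections and those of the later days 5, so time and dose cannot be told apart. The 8 enterocyte markers were all lower in WT at day 7 and day 14 than at day 2 (median log2 fold changes -1.05 and -1.27), with 3 called by edgeR at day 14, and their part in the hormone levels was not tested.

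Levels of different hormones were set beside each other as CPM per kilobase of exon. Gip led in every group, at 54.1 ± 7.66 CPM per kb (SD, n = 3) in WT and 104 ± 12.5 CPM per kb in KO at day 7, with no library of the next hormone reaching it. In WT crypts at day 7, Gcg (17.96 ± 1.62), Sst (16.7 ± 1.35) and Sct (14.9 ± 1.74) followed in levels per kb, and neighbours in that order overlapped. Ghrl (10.1 ± 0.550) and Cck (9.73 ± 0.597) came next and overlapped each other, and then came Nts (5.60 ± 0.436) and Pyy (2.68 ± 0.620), each apart from its neighbours. In KO crypts at day 7 the order of levels per kb was Gip, Gcg (43.4 ± 8.69), Sct (42.7 ± 18.3), Cck (25.4 ± 11.6), Sst (17.05 ± 4.56), Pyy (15.1 ± 6.96), Nts (11.9 ± 3.41) and Ghrl (6.30 ± 0.694). From Gcg to Nts neighbouring KO levels overlapped, and Ghrl alone stood apart at the bottom, where Pyy stood in WT crypts and in KO crypts of day 2. For day 14 the KO order of the 8 genes was the same as at day 7.

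The summed level of the 8 hormones rose while its make-up shifted. The sum was 240 ± 49.3 CPM (SD, n = 3) in KO at day 7 and 244 ± 4.44 CPM in KO at day 14, about double the WT sums. As a share of the summed CPM per kb, Ghrl held 7.64% ± 0.379 in WT and 2.44% ± 0.605 in KO at day 7, and 7.58% ± 0.185 and 2.02% ± 0.366 at day 14. Sst held 12.6% ± 0.595 in WT and 6.77% ± 2.76 in KO at day 7, and 12.8% ± 2.51 and 7.78% ± 2.45 at day 14. Pyy held 2.03% ± 0.383 in WT and 5.52% ± 1.47 in KO at day 7, and 2.67% ± 1.37 and 4.90% ± 0.859 at day 14. At day 14 the WT and KO libraries overlapped in the shares of Sst and of Pyy, and at day 7 they did not. The share of Gip was 41.0% ± 4.07 in WT and 39.6% ± 4.63 in KO at day 7, where the libraries overlapped, and 40.0% ± 3.76 in WT and 47.6% ± 2.81 in KO at day 14, where they did not.

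**Figure D3:**
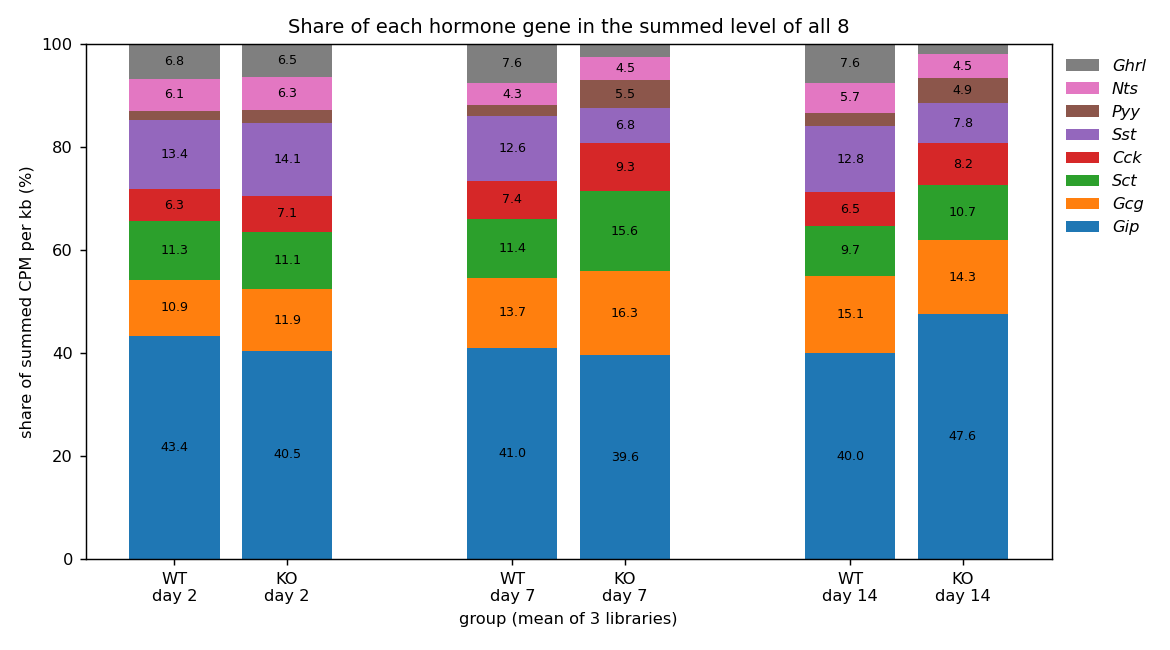
Share of each hormone gene in the summed CPM per kb of all 8 (vertical axis, percent), drawn as stacked bars of the mean of 3 libraries for each group. Between WT and KO at days 7 and 14 the Sst and Ghrl segments shrink (Ghrl from 7.64% to 2.44% at day 7) and the Pyy segment grows.

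To compare the hormones of different subtypes with each other, the log2 ratio of each of the 28 hormone pairs was taken within each library, and KO and WT were compared over days 7 and 14 by a two-sided exact permutation test that relabelled libraries within each day. The 400 relabellings allow no p under 0.005. After Benjamini-Hochberg adjustment over the 28 pairs, 16 ratios differed, and 18 had an unadjusted p under 0.05. With a library left out the number called ran from 13 to 18. The ratio cancels what a library's hormones share, including its depth.

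Ghrl fell against each of the other 7 hormones. Against Cck, Gip, Gcg, Sct, Pyy and Nts the single-gene levels fixed this outcome. On both days every KO library lay above every WT library for these genes and below for Ghrl. Each of these ratios therefore had to reach the smallest p, and their calls repeat the single-gene results. The largest of the 28 shifts was that of Pyy to Ghrl, which was higher in KO by 2.94 on the log2 scale (exact permutation test, adjusted p = 0.0127), and the smallest with Ghrl was that of Sst to Ghrl, higher by 0.92 (adjusted p = 0.0127 by the exact permutation test). Ghrl and Sst, the 2 hormones that did not rise, thus differed from each other as well. Pyy rose against each of the other 7, by 1.03 against Gcg (exact permutation test, adjusted p = 0.0127), its partner in L cells, by 0.83 against Cck (exact permutation test, adjusted p = 0.0373) and by 0.85 against Sct (exact permutation test, adjusted p = 0.0438). The Cck and Sct ratios to Pyy lost their call when any of 10 of the 12 libraries was left out, with adjusted p up to 0.0747 and 0.117 by the exact permutation test. The Cck ratio kept it without KO replicate 2 of day 7 or WT replicate 1 of day 14, and the Sct ratio without WT replicate 1 of day 7 or of day 14. The Gip ratio to Pyy (adjusted p = 0.03 by the exact permutation test) lost its call, at up to 0.056, without WT replicate 2 of day 7 or 14, KO replicate 1 of day 7 or KO replicate 3 of day 14. Sst fell against Cck, Gip and Sct, by 1.19, 0.97 and 1.17 as ratios of these genes to Sst (exact permutation test, adjusted p = 0.0127 for each), whereas Gcg to Sst (0.99) and Nts to Sst (0.70) missed the threshold, each at an adjusted p of 0.0544 by the exact permutation test.

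Among Cck, Gip, Gcg, Sct and Nts none of the 10 ratios was called, with shifts from -0.20 (Gip to Sct) to 0.48 (Cck to Nts), and the smallest unadjusted p was 0.14 by the exact permutation test. With 3 libraries a group, such a result does not show that these hormones moved alike. Several of these small shifts changed sign between days, such as that of Gip to Gcg, which was -0.31 at day 7 and 0.29 at day 14.

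**Figure D4:**
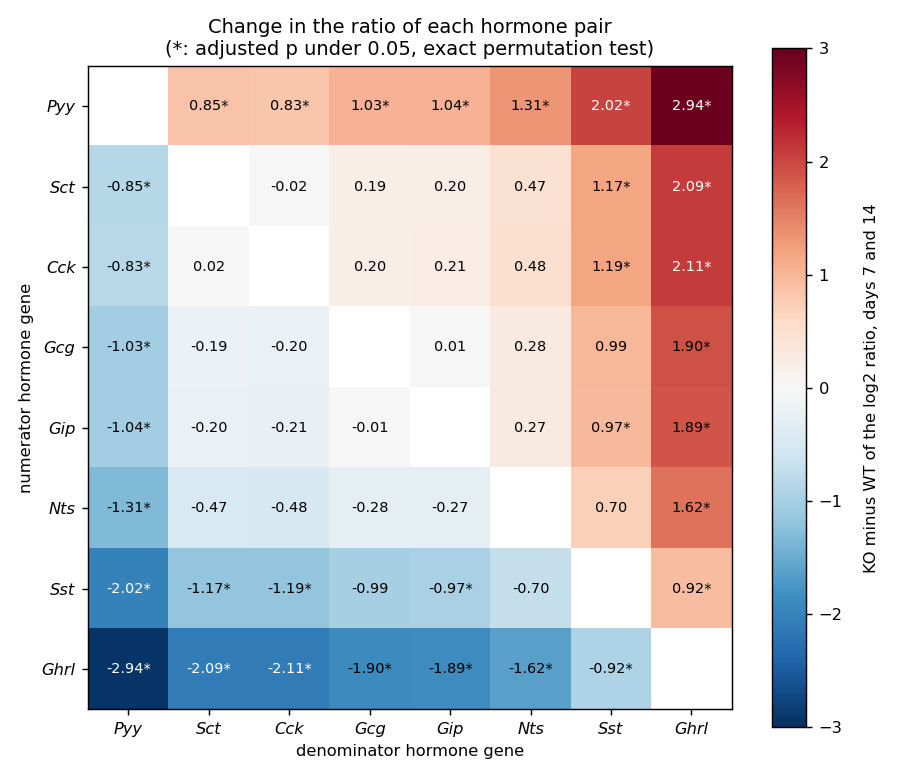
Change in the within-library log2 ratio of each pair of hormone genes (row over column), as the KO mean minus the WT mean averaged over days 7 and 14, in red where the ratio was higher in KO and in blue where it was lower. Stars mark adjusted p under 0.05 by the exact permutation test, and they fill the rows of Pyy and Ghrl and are absent among Sct, Cck, Gcg, Gip and Nts.

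Each hormone was also set against the mean of 12 genes shared by enteroendocrine cells, among them the factors Neurod1, Insm1 and Isl1 and the granule genes Cpe, Scg3, Scg5 and Pcsk1n. Of these 12, 5 were called higher and 1 (Scg5) lower at day 7, and 8 higher and 0 lower at day 14, with median log2 fold changes of 0.62 and 0.91, beside 7.11% higher and 10.2% lower of all genes at day 7 and 3.23% and 4.69% at day 14. Over days 7 and 14 Pyy rose against this mean by 1.49 on the log2 scale (exact permutation test, adjusted p = 0.01) and Ghrl fell by 1.45 (exact permutation test, adjusted p = 0.01). Cck (0.66), Gip (0.45) and Sct (0.64) were called higher too, and Sct lost its call when any of 8 of the 12 libraries was left out, by adjusted p of 0.0533 to 0.072 in the exact permutation test. Gcg (0.46) and Sst (-0.53) missed the threshold, each with an adjusted p of 0.0514 by the exact permutation test, and Nts (0.18) had an adjusted p of 0.47 by the same test. The reference mattered, because the granule gene Chgb rose by more than the mean of the 12. Against Chgb alone Ghrl (-2.25), Sst (-1.34) and Gip (-0.36) were called lower, Cck (-0.15), Gcg (-0.35), Sct (-0.16) and Nts (-0.63) turned below 0 without a call, and Pyy stayed above it (0.68) without a call. The fall of Ghrl was thus the single difference called in the same direction with both references. The levels fixed that outcome, since every KO library lay below WT for Ghrl and above WT for both references on both days. The mean log2 CPM of the 12 genes ran from 1.40 to 1.52 in WT and 1.92 to 2.02 in KO at day 7. At day 14 it ran from 1.37 to 1.46 and 2.15 to 2.35. The 2 calls therefore add nothing to the single-gene result.

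The spread among libraries of the same group was shared by some hormones. After group means were removed, Gcg and Pyy deviated together over the 18 libraries (Pearson's r = 0.84, permutation p = 0.00317, adjusted p = 0.0510 over 28 pairs, and Spearman's rho = 0.81, permutation p = 0.00107, adjusted p = 0.0300). Cck and Sct did as well (Pearson's r = 0.82, permutation p = 0.00364, adjusted p = 0.0510, and Spearman's rho = 0.82, permutation p = 0.00476, adjusted p = 0.0496). Sst and Ghrl were the next pair (Pearson's r = 0.71, permutation p = 0.0113, adjusted p = 0.105, and Spearman's rho = 0.72, permutation p = 0.00532, adjusted p = 0.0496). By Pearson's r 0 of 28 pairs passed the adjusted threshold, 5 had an unadjusted p under 0.05, and by Spearman's rho 3 of 28 passed. Without the 2 libraries farthest from the median the 3 correlations were 0.76, 0.78 and 0.74. Of the 28 values of r, 22 were above 0, and none of the other 6 passed by r or by rho in the permutation test.

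The genes whose log2 CPM followed each hormone most closely over the 18 libraries are given as a description, since genotype moves many genes at the same time. Among 17072 genes with a mean of at least 1 CPM, Gip was followed by Chgb (r = 0.90) and Chga (r = 0.90), the chromogranins of secretory granules, and by Cdkn1c (r = 0.90), a cell cycle inhibitor. Gcg and Pyy had Nxpe3 (r = 0.94 and 0.93) and Twf2 (r = 0.93 and 0.93) in common among their 3 closest genes. Cck was followed by Gstm3 (r = 0.95), a glutathione transferase, G0s2 (r = 0.94) and Prrx1 (r = 0.94), and Sct by Gstp1 (r = 0.96) and Slc35g1 (r = 0.95). Sst was followed by Pdzk1 (r = 0.93), Cpne2 (r = 0.93) and Enpp7 (r = 0.90), and Nts more loosely by Gm49361 (r = 0.88), Ralgps2 (r = 0.87) and Parp12 (r = 0.87). Ghrl was followed by its overlapping neighbour Gm44033 (r = 0.98), then by Galm (r = 0.94) and Ptgr2 (r = 0.94).

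Of 22 further gut and neural peptide genes, 4 were expressed highly enough to be tested, and Tac1 and Ucn3 rose on both days, when 7.11% (day 7) and 3.23% (day 14) of all genes were called higher. Tac1, which encodes substance P, rose by 0.80 ± 0.20 SE on the log2 scale at day 7 (edgeR adjusted p = 0.00777) and 1.03 ± 0.20 at day 14 (edgeR adjusted p = 0.00268). Ucn3, which encodes urocortin 3, rose by 1.00 ± 0.30 at day 7 (edgeR adjusted p = 0.0257) and 1.53 ± 0.29 at day 14 (edgeR adjusted p = 0.00222). Iapp and Nmb were not called on either day.

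Of 13 genes that cut, package and store the hormones, 12 were tested. Of these, 6 were called higher and 1 lower at day 7 (7.11% and 10.2% of all genes), and 8 higher and 0 lower at day 14 (3.23% and 4.69% of all genes), with a median log2 fold change of 0.61 and 1.04. Chgb, a granule protein, rose from 160, 140 and 151 CPM in WT to 428, 376 and 360 CPM in KO at day 7 and from 130.4, 168 and 136 CPM to 446, 461 and 386 CPM at day 14. The log2 fold change of Chgb was 1.37 (edgeR adjusted p = 0.000105) and 1.57 (edgeR adjusted p = 6.14e-05) at days 7 and 14. Vgf, the granule peptide with the largest log2 fold change of the list, rose by 2.01 at day 7 (edgeR adjusted p = 0.00184) and 2.50 at day 14 (edgeR adjusted p = 0.000762). Its counts were low, at 3 to 43 per library. Chga (1.03 and 1.78), Scg2 (1.53 and 1.10) and Cpe (1.07 and 0.99), a carboxypeptidase that trims the cut peptides, were called higher on both days, and Resp18 (0.76 and 1.21) and Pcsk1n (-0.18 and 1.64) at day 14 alone. Pcsk1n had 3 to 23 counts per library. The prohormone convertase Pcsk1, which cuts proglucagon to GLP-1, rose by 0.42 (edgeR adjusted p = 0.0459) and 0.83 (edgeR adjusted p = 0.00106). Scg5, the chaperone of the convertase Pcsk2, was called lower at day 7 (-1.39, edgeR adjusted p = 0.0130) and missed the threshold at day 14 (-1.25, edgeR adjusted p = 0.0566).

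Of 22 transcription factors of the lineage, all tested, 7 were called higher and 2 lower at day 7, and 12 higher and 0 lower at day 14, with a median log2 fold change of 0.62 and 0.89 and the same shares over all genes as above. The factor that specifies the lineage, Neurog3, rose by 1.04 at day 7 (edgeR adjusted p = 0.00356) and 1.17 at day 14 (edgeR adjusted p = 0.00280), and its target Neurod1 by 1.20 (edgeR adjusted p = 0.000567) and 1.29 (edgeR adjusted p = 0.000690). Pax4 rose by 0.85 at day 7 (edgeR adjusted p = 0.0321) and 1.85 at day 14 (edgeR adjusted p = 0.000290). Insm1 (1.04 and 1.36), Pax6 (1.12 and 1.41) and Lmx1a (0.70 and 1.42), a factor of enterochromaffin cells, were called higher on both days, and Fev (0.85 and 1.91) and Rfx6 (0.57 and 0.92) passed at day 14. Foxa2 and Mnx1 were the factors called lower at day 7 (log2 fold changes -0.79 and -0.91), with -0.20 and -0.08 and no call at day 14. Hhex, a factor of D cells with 4 to 16 counts per library, was not called (-0.12 and -0.50).

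Enterochromaffin cells, the serotonin-making branch of the lineage, gave 5 of 10 genes called higher at day 7 and 6 of 10 at day 14, with none called lower (7.11% and 3.23% of all genes were called higher on these days). Tph1, the enzyme that starts serotonin synthesis, rose by 1.85 at day 7 (edgeR adjusted p = 2.00e-06) and by 2.18 at day 14 (edgeR adjusted p = 1.25e-06). Slc18a2, which loads monoamines into vesicles, was called at day 14 (0.44 and 0.66). Of 20 receptors for the hormones 7 were expressed enough to be tested, and the single call, beside 17.3% of all genes called at day 7 and 7.92% at day 14, was Sort1, a sorting receptor that binds neurotensin, which fell by 0.71 at day 7 (edgeR adjusted p = 0.000795) and by 0.47 at day 14 (edgeR adjusted p = 0.0264). Among these 7 receptors, 5 had a log2 fold change above 0 at day 7 and 6 at day 14 (medians 0.36 and 0.84). Gipr, Sstr1, Sstr2, Sstr3 and Sstr5 had 6 to 51 counts per library, so the lack of a call does not show that they were unchanged. Of 5 peptidases that degrade such hormones, Dpp4 among them, edgeR called 0 on either day, and 0 had an unadjusted p under 0.05. Of 8 nutrient and lipid sensors of enteroendocrine cells 6 were tested, and beside the same shares of all genes the fatty acid receptor Ffar1 was the single call (log2 fold change 1.31 at day 7, edgeR adjusted p = 0.00347, and 1.07 at day 14, edgeR adjusted p = 0.0264).

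Markers of other tissues and cell types were measured in the same libraries, since several of the hormones are also made outside the small intestine or in part of it. Stomach markers varied widely between libraries, and the 6 tested of 7 listed summed to 1.83 to 2.11 CPM in WT and 6.20 to 47.9 CPM in KO at day 7, and to 2.21 to 131 CPM in WT and 2.02 to 37.0 CPM in KO at day 14. Of these 6, Pgc was called lower at day 14 and none was called at day 7. The median stomach sum at day 14 was 110 CPM in WT and 2.58 CPM in KO. The part of stomach RNA in the Ghrl difference was not tested. Of 9 pancreas genes 4 were tested and none was called, and they summed to 0.319 to 2.45 CPM in WT and 0.632 to 1.00 CPM in KO at day 7, and to 0.434 to 2.87 and 1.11 to 5.87 CPM at day 14, when all 4 had a log2 fold change above 0 (median 1.43). The islet marker Ins1 had 0 counts in all 18 libraries. Of 9 enteric neuron genes 4 were tested and summed to 3.71 to 5.69 CPM in WT and 7.05 to 10.5 CPM in KO at day 7, and to 3.89 to 6.65 and 7.33 to 11.1 CPM at day 14. Ret was the single neuron gene called on these days (log2 fold change 1.15 and 1.05).

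Position along the gut was read from 7 genes of the upper and 7 of the lower small intestine. As background for the marker lists, 17.3% of all genes were called at day 7 (7.11% higher and 10.2% lower) and 7.92% at day 14 (3.23% higher and 4.69% lower). At day 7 Onecut2 and Lct, of the upper list, were called lower and Fabp1 higher, and of the lower list Cubn was called lower and Slc51b higher. At day 14 the only call among these 14 genes was Fgf15, which was lower. The 8 enterocyte markers all had log2 fold changes above 0 on both days, with 1 call each day (Fabp2 at day 7 and Sis at day 14), and their sum ran from 9893 to 13705 CPM in WT and 15097 to 23145 CPM in KO at day 7. At day 14 that sum ran from 5675 to 14468 CPM in WT and 12259 to 24714 CPM in KO. Of the 5 stem cell markers, Lgr5, Olfm4 and Smoc2 were called lower at day 7 and Smoc2 at day 14. Among 6 stromal and 6 immune markers, 2 stromal genes were called higher at day 7 and no immune gene on either day by edgeR (0 of 6 at an unadjusted p under 0.05). The part of these markers in the hormone differences was not tested.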

How the data were processed

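Small intestinal crypt RNA of 18 mice was sequenced in paired-end mode by the authors, aligned with STAR 2.7.3 and counted per gene with featureCounts 1.6.4 without regard to strand (versions per the submitters' processing notes). The authors deposited raw counts without normalization, and 0 columns were left unused. The annotation is GENCODE for mouse (mm10), of which the table's header and the methods name different releases. The 20 genes that the study removed as gender-specific were left out. Its mice were of both sexes, which the paper describes as matched between KO and control. The labels do not give the sex of a library, so sex was not in the model. The filterByExpr function of edgeR 4.0.16 (limma 3.58.1, R 4.3.3) left 21349 genes, which were scaled by TMM. A single quasi-likelihood model with a mean for each of the 6 groups and robust dispersions was fitted in edgeR. Contrasts were KO against WT by day, WT days against each other and the KO effects of the days against each other, at a Benjamini-Hochberg adjusted p of 0.05. CPM used TMM library sizes, and CPM per kb the exon length in the table.

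Within-library log2 ratios used a prior count of 2. Group means were removed before co-variation was tested over 46656 relabellings within groups. Tables and plots were made in Python 3.11.15 (matplotlib 3.10.9, scipy 1.17.1, pandas 2.3.3, numpy 2.4.6). The tests were checked on simulated data. The members and the 19 lists (173 genes) were chosen with earlier results of these data known. The text names every member, the called genes of the endocrine lists (up to 6 a list, by the size of the day 14 change), the 3 genes closest to each member, and, named after their values were seen, Gm26982, Mboat4, Pcsk1, Neurog3, Rfx6, Foxa2, Mnx1, Hhex and the marker genes of other tissues. Some further items are not reported here. Alternatives were DESeq2 1.42.0 (Wald test, size factors), other filters, the 20 most abundant genes left out, the removed genes kept, smaller models, a replicate block, another prior count, another reference, single days and each library left out.

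Replicate numbers were checked for pairing by the correlation of same-numbered KO and WT deviations from group means. It was above 0.1 for all 3 pairs at day 14 (0.227, 0.180 and 0.159), but not for all pairs at day 2 (0.0478, 0.158 and 0.381) or day 7 (-0.159, 0.206 and 0.0787). The labels do not say that a number marks a litter or batch.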

Additional observations from a re-analysis of the deposited data

Results flagged for a closer look

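The KO effect on 5 hormone genes differed between days 7 and 2 by a test of the difference itself (edgeR's quasi-likelihood interaction test). The differences in log2 fold change were 1.30 for Cck, 1.10 for Gip, 1.20 for Gcg, 1.63 for Sct and 2.00 for Pyy. The same test found a difference for Gip between days 14 and 2, of 1.41. Without KO replicate 1 of day 2 none of the 5 day 7 differences passed the threshold, although their direction held, with edgeR adjusted p from 0.0556 for Gcg to 0.110 for Sct. With a model of only the groups compared, 3 of the 5 passed. The day 2 mice had received fewer injections than those of days 7 and 14, so time and dose cannot be told apart.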

How the results depend on the processing

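The number of hormones called at day 7 (7) and day 14 (6) stayed between 6 and 7 and between 5 and 6 under every alternative, and at day 2 it was 0 throughout. Cck, Gip, Gcg, Pyy and Ghrl kept their calls at both days in all of them. The calls of Nts at day 7 and Sct at day 14 are the exceptions given above. The KO effects of days 7 and 2 differed for 5 hormones, and for 3 with a model of only the groups compared, or 0 to 6 with a library left out. The number of hormone ratios called ran from 13 to 18 and that against the endocrine mean from 4 to 6 with a library left out. Between days 14 and 2 the count of 1 became 3 without a filter on low counts and with DESeq2's Wald test, 2 with a minimum mean count of 50 and with the smaller model, 4 with a replicate block within each day, which was added after seeing the data, and 1 to 2 with a library left out. For WT day 7 against day 2 the count of 0 became 1 without the filter, 2 with DESeq2's Wald test and with the smaller model, and 0 to 2 with a library left out. For WT day 14 against day 2 it became 1 without the filter, with the minimum mean count of 50 and with DESeq2's Wald test, and 0 to 1 with a library left out.

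A replicate block changed the sign of the uncalled Sst at day 2 (-0.033) and day 7 (-0.010), lost the calls of Sct at day 14 and of the Sct difference between days 7 and 2 (edgeR adjusted p = 0.0632), and changed no other call of KO against WT. The paired fit within each day kept all 6 calls of day 14.

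With a library left out, log2 fold changes at day 2 ran from -0.31 to 0.043 for Gip, -0.17 to 0.20 for Gcg, -0.37 to 0.26 for Sct, -0.095 to 0.82 for Pyy, -0.37 to 0.23 for Nts, -0.20 to 0.21 for Sst and -0.21 to 0.075 for Ghrl, and at day 7 from -0.10 to 0.25 for Sst. At day 14 they ran from 0.32 to 0.88 for Nts and from 0.0053 to 0.48 for Sst, without a call. The shift of Cck to Sct ran from -0.039 to 0.10, of Gip to Gcg from -0.19 to 0.081, of Gcg to Sct from -0.38 to 0.0048 and of Nts to the endocrine mean from -0.0044 to 0.29. On single days, where 3 against 3 libraries allow no p under 0.1, uncalled shifts changed sign for Cck to Sct (-0.14, day 7), Gip to Nts (-0.094, day 7), Gip to Gcg (0.29, day 14), Gip to Sct (0.091, day 14) and Nts to the endocrine mean (-0.17, day 14). With Chgb as the reference 3 hormones were called rather than 5, with Cck at -0.15, Gip at -0.36, Gcg at -0.35, Sct at -0.16 and Nts at -0.63. The cause of these changes was not tested. Counting error is smallest for Gip and largest for Pyy, and the spread between 3 mice a group sets the precision.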
